A study of Drosophila melanogaster with 3 samples.

Results

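The genes for the proteins of the large subunit of the cytosolic ribosome were examined in a chromatin immunoprecipitation experiment in Drosophila melanogaster. Members were the protein-coding genes on the major chromosome arms whose symbol starts with RpL followed by a digit or by P, which leaves out the mitochondrial set named mRpL. There were 54 such genes of 13968 protein-coding genes. They lay on all arms except 4 and Y, with 13 on 2L, 14 on 2R, 10 on 3L, 11 on 3R and 6 on X.

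Every cytosolic ribosome is built from ribosomal RNA and a fixed set of proteins, so the cell needs the proteins of the large and small subunits in matched amounts. In flies, losing a single copy of many ribosomal protein genes gives the Minute phenotype of slow development and short bristles. Their promoters are among the most heavily used in growing cells, and in Drosophila many start transcription at a pyrimidine-rich initiator, named TCT after its first letters, in place of the common initiator. Large subunit proteins take distinct places: the stalk that recruits elongation factors, the particle with 5S RNA, the catalytic core, and the rim of the tunnel through which the new chain leaves.

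The flies came from a transgenic line that stably makes CG9139 with a C-terminal green fluorescent protein (GFP). CG9139 encodes Rabex-5, which activates Rab5, a GTPase of endosomes, and also acts in ubiquitination. Whole prepupae of both sexes, labelled 24 hours, were used in 3 biological replicates, all of 1 group, with an antibody against GFP and chromatin sheared to 200 to 800 bp. Whole animals mix all tissues, so the cells behind a peak are not known. Flies lacking the GFP fusion were not analysed here. The deposited files are region lists on dm6 (Release 6) and hold no read counts, which leaves the depth of each sample unknown. Each replicate, and the reads of all 3 pooled, has 30000 candidate regions ranked by the authors' signal, an enrichment over 1 control alignment. The final list of 4934 peaks was set by a limit on the irreproducible discovery rate (IDR) and is the top of the pooled list.

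A gene is called bound here if the summit of a peak lay within 500 bp of one of its annotated transcription start sites (TSSs), a statement about position only. For each replicate, the strongest candidates are its 4934 regions of highest signal, as many as there are IDR peaks. Signals of different lists are on different scales. They are therefore given as ranks within a list, or as relative signal, the signal of a candidate divided by the median of that replicate at the IDR peaks. Values of the 3 replicates are listed in the order 1, 2, 3, and a gene with no candidate within 500 bp of a TSS has no value. Rabex-5 itself was not bound, and its nearest IDR summit lay 23378 bp away.

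Large subunit genes were bound far more often than protein-coding genes at large. In the IDR list 34 of 54 RpL genes were bound, a share of 63.0%, against 13.1% of all protein-coding genes. Small subunit genes had a similar share, with 23 of 39 bound (59.0%). Of the genes of the mitochondrial ribosome 9 of 73 were bound (12.3%), a share near the background within 500 bp. It fell below the background under stricter rules of distance or gene assignment, but not under stricter rules of signal or replicates. With each summit counted for its nearest gene alone, 2 were bound (2.74%), against 11.2% of all genes, and within 200 bp 4 were bound (5.48%), against 9.38%. Among peaks above the median signal 8 were bound (11.0%), against 7.47%. Leaving out replicate 1, 2 or 3 also left 8 (11.0%), against 8.91%, 8.49% and 9.11%. Among all pooled candidates, which need not have passed the IDR threshold, 40 RpL genes were listed (74.1%), against 32.5% of all protein-coding genes. The IDR count depends on the replicates behind it: restricted to peaks among the strongest candidates of both others, it was 18 RpL genes without replicate 1 (33.3%, against 8.91% of all genes) and 19 without replicate 2 (35.2%, against 8.49%). Bound RpL genes were found on every arm that holds members, with 8 of 13 on 2L, 7 of 14 on 2R, 7 of 10 on 3L, 6 of 11 on 3R and 6 of 6 on X. The shares of all protein-coding genes bound on these arms were close to each other, between 12.0% on 2R and 14.5% on 3L. The summit lay within 500 bp of the start of another protein-coding gene as well at 14 of the 34 bound RpL genes (41.2%), 9 of the 23 bound RpS genes (39.1%) and 33.0% of the other bound genes.

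The 3 replicates gave the same direction with unequal shares. Among the strongest candidates, replicate 1 held 44 RpL genes (81.5%), replicate 2 held 35 (64.8%) and replicate 3 held 20 (37.0%). The background for these counts, over all protein-coding genes, was 14.2% in replicate 1, 14.6% in replicate 2 and 13.0% in replicate 3. The mean share was 61.1% ± 22.5 for RpL genes and 57.3% ± 14.6 for RpS genes (SD, n = 3), against 14.2% ± 3.95 for mitochondrial ribosomal protein genes and 14.0% ± 0.820 for all genes. The lowest RpL replicate thus lay above the highest value of all genes, while the ranges of the RpL and RpS genes overlapped. With every candidate counted, 47, 48 and 31 RpL genes were listed in replicates 1, 2 and 3, against backgrounds of 37.0%, 41.9% and 34.4% of all genes.

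**Figure D1:**
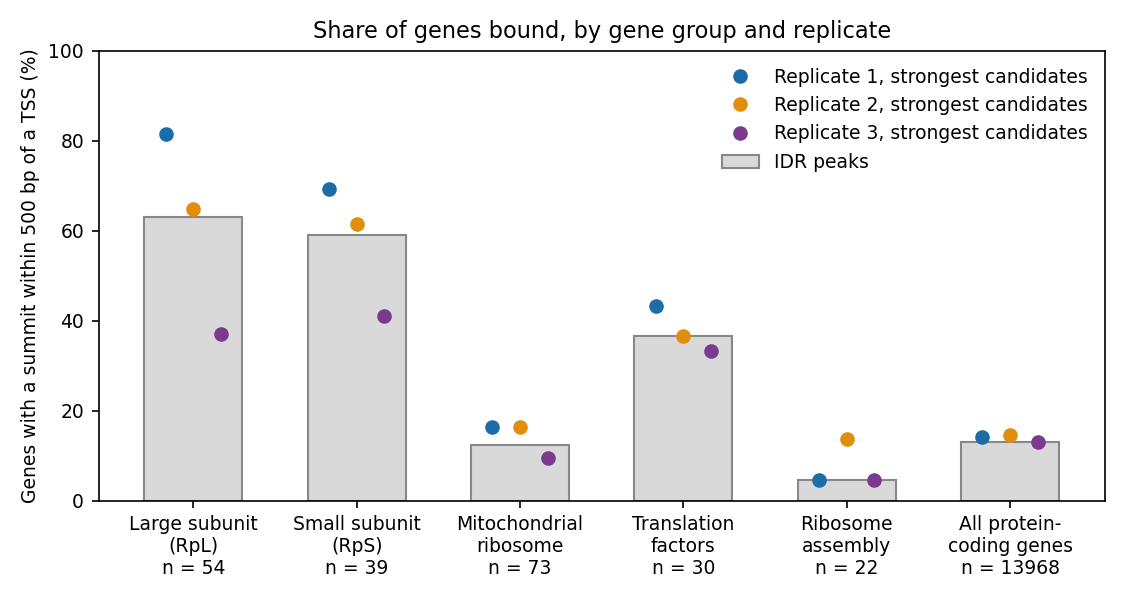
Share of genes (%, vertical axis) with a summit within 500 bp of a TSS, by gene group along the horizontal axis. Bars are the IDR peaks and points the strongest candidates of each replicate; RpL genes lie between 37.0% and 81.5% by replicate, and all protein-coding genes between 13.0% and 14.6%.

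In all 3 replicates, 19 RpL genes were among the strongest candidates (35.2%), against 7.83% of all protein-coding genes. Without replicate 3, 33 were among the strongest candidates of both others (61.1%), against 10.1% of all genes. Of the other RpL genes, 15 were there in exactly 2 replicates (27.8%, against 5.30% of all genes), 12 in exactly 1 (22.2%, against 7.83%) and 8 in none (14.8%, against 79.0%). The 19 were RpLP0, RpLP1, RpL3, RpL4, RpL7A, RpL8, RpL9, RpL13, RpL14, RpL17, RpL22, RpL23, RpL23A, RpL24, RpL27, RpL30, RpL34b, RpL37A and RpL41. All but RpL9 were also bound in the IDR list. The 8 in no replicate were RpL6, RpL21, RpL10Aa, RpL37-2, RpL7-like, RpL22-like, RpL24-like and RpLP0-like, and none of these was bound in the IDR list.

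Summits at RpL genes clustered at the start site. At the 34 bound genes the median position was -5.5 bp from the nearest TSS of the gene, with quartiles at -26.25 and 14 bp, where negative is upstream. From the outermost TSS the median was 13.5 bp, and with the summits of replicates 2 and 3 it was 8 and 16.5 bp. In 29 of 34 (85.3%) the summit lay within 50 bp of the TSS, against 349 of the 1800 other bound genes (19.4%), whose median was -106 bp. At bound RpS genes the median was 3 bp, with 18 of 23 within 50 bp (78.3%). Among the strongest candidates of each replicate, 86.4%, 65.7% and 85.0% of the RpL summits lay within 50 bp of the TSS in replicates 1, 2 and 3. For RpS genes these shares were 85.2%, 58.3% and 56.3%, and whether the sets differ was not tested. At the 9 bound mitochondrial ribosomal protein genes the median was -244 bp and no summit lay within 50 bp. The IDR summit of RpL32 lay far out, at -215 bp, and closer to the start of a neighbour, CG7943. In replicates 1 and 2 its candidates lay nearer, at -29 and -10 bp.

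**Figure D2:**
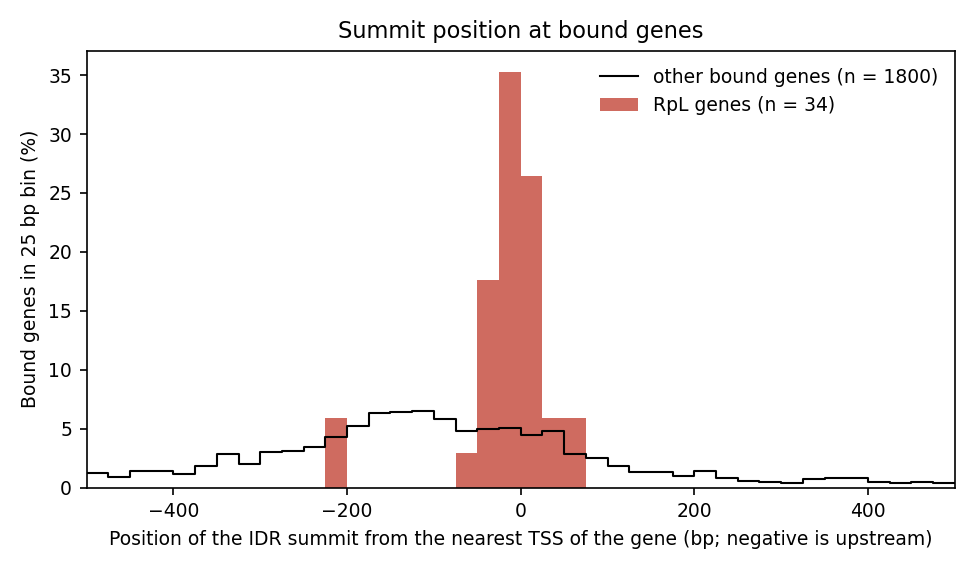
Position of the IDR summit from the nearest TSS of the gene (bp, horizontal axis; negative is upstream) as the percentage of bound genes in each 25 bp bin (vertical axis). Bars are the 34 RpL genes and the line the 1800 other bound genes; RpL summits crowd at the TSS, while the others spread upstream with a median of -106 bp.

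The letters at these start sites were read from the RefSeq Release 6 genome, which shares its coordinates with dm6. The TCT initiator was sought as a run of 6 bases on the gene's strand, a pyrimidine (C or T), then CTTT, then another pyrimidine, with the C of CTTT within 25 bp of the TSS, at the outermost TSS of each gene. It was found at 34 of 54 RpL genes (63.0%), against 6.41% of all protein-coding genes. It was found at 20 of 39 RpS genes (51.3%) and at 3 of 73 mitochondrial ribosomal protein genes (4.11%). That C lay within 5 bp of the TSS at 18 RpL genes (33.3%), against 1.38% of all genes. With the TSS nearest to the summit in place of the outermost one at bound RpL genes, 39 of 54 RpL genes had the initiator. This C then lay at a median of 5 bp downstream of the annotated start. Unbound genes kept the outermost TSS, so the rise from 34 came from bound genes alone, from 24 to 29.

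Stretches of 60 bases before and 25 bases from the TSS on are printed for 10 genes, with the initiator in capitals, to show what lies under the summits. The first 7 were bound, with RpL7, RpL14, RpL30, RpL7A and RpLP0 among the 10 RpL genes of highest signal, RpL27 with the DRE word tatcgata, and RpLP0 and RpLP1 with the M1BP word ggtcacact. RpL24 was bound without an initiator at this start. RpL28 had an initiator but was not bound, and RpL10Aa had neither. Most of the initiators shown ran on into further pyrimidines.
RpL7: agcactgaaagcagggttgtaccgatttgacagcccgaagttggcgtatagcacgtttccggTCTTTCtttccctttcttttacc
RpL14: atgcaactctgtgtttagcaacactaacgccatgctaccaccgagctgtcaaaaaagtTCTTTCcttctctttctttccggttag
RpL30: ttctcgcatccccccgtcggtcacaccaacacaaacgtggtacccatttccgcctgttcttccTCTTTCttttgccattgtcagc
RpL7A: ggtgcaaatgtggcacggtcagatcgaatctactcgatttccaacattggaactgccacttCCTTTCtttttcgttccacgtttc
RpLP0: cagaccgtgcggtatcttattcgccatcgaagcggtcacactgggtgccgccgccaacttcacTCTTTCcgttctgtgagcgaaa
RpL27: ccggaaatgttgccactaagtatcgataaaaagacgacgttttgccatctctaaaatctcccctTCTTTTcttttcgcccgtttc
RpLP1: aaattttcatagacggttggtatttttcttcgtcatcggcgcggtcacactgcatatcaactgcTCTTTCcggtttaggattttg
RpL24: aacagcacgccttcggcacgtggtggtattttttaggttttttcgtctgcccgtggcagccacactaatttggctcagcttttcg
RpL28: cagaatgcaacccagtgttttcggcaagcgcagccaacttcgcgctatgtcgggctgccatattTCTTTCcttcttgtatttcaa
RpL10Aa: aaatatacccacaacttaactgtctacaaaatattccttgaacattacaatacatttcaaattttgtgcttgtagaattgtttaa
These stretches lie at chr2L:10201040-10201124 on the plus strand, chr3L:8600946-8601030 on the plus strand, chr2L:19009213-19009297 on the minus strand, chrX:6533232-6533316 on the minus strand and chr3L:22076032-22076116 on the plus strand for the first 5 genes. The others lie at chr3R:25685027-25685111 on the minus strand, chr2L:419892-419976 on the plus strand, chr2L:13395107-13395191 on the minus strand, chr3L:3222936-3223020 on the minus strand and chr3R:15037306-15037390 on the plus strand, in the order above.

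Having the initiator went only partly with being bound. Of the 34 bound RpL genes 24 had it (70.6%), against 10 of the 20 that were not bound. At 29 bound genes with an initiator by the TSS nearest to the summit, the summit lay at a median of -7 bp from that C, and within 50 bp of it in 24. This closeness follows largely from the choice of that TSS. The initiator was sought within 25 bp of it, and 29 of the 34 summits lay within 50 bp of it. Outside the cytosolic ribosomal protein genes, 27 of 163 genes with that C within 5 bp of the TSS were bound (16.6%), against 1750 of 13712 without (12.8%). Among RpL genes those counts were 12 of 18 with it (66.7%) and 22 of 36 without (61.1%).

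The promoters held other words less evenly. Words were sought on both strands from 250 bp before to 50 bp after the outermost TSS. TATCGATA, the DNA replication-related element (DRE) read by DREF, was in 15 RpL promoters (27.8%) and 13 RpS promoters (33.3%), against 9.36% of all promoters. GGTCACACT, the motif of M1BP, a factor known from ribosomal protein promoters, was in 6 RpL promoters (11.1%), against 6.04% of all. RpS promoters (10.3%) and mitochondrial ribosomal protein promoters (11.0%) held it at similar shares. With the window started 100 bp before the TSS it was in 4 RpL promoters (7.41%), against 5.18% of all. With the TSS nearest to the summit at bound RpL genes it was in 7 RpL promoters (13.0%), against 6.04% of all. RpLP0, printed above at an inner start, was in that count but not among the 6. CACGTG, the E-box that Myc and Max read, was in 8 RpL promoters (14.8%) and in none of 39 RpS promoters, against 4.20% of all. GAGAG, the word of the GAGA factor, was in 12 RpL promoters (22.2%), against 29.7% of all, and in 7 (13.0%), against 18.0% of all, with the window started 100 bp before the TSS. In the longer window RpS promoters (10.3%) and mitochondrial ribosomal protein promoters (16.4%) held GAGAG at lower shares still, and whether the sets differ was not tested. The E-box stood in 3 of 34 bound RpL promoters and 5 of 20 that were not bound, and the DRE in 9 of 34 and 6 of 20. A match is a description of the letters and shows no binding of these factors.

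**Figure D3:**
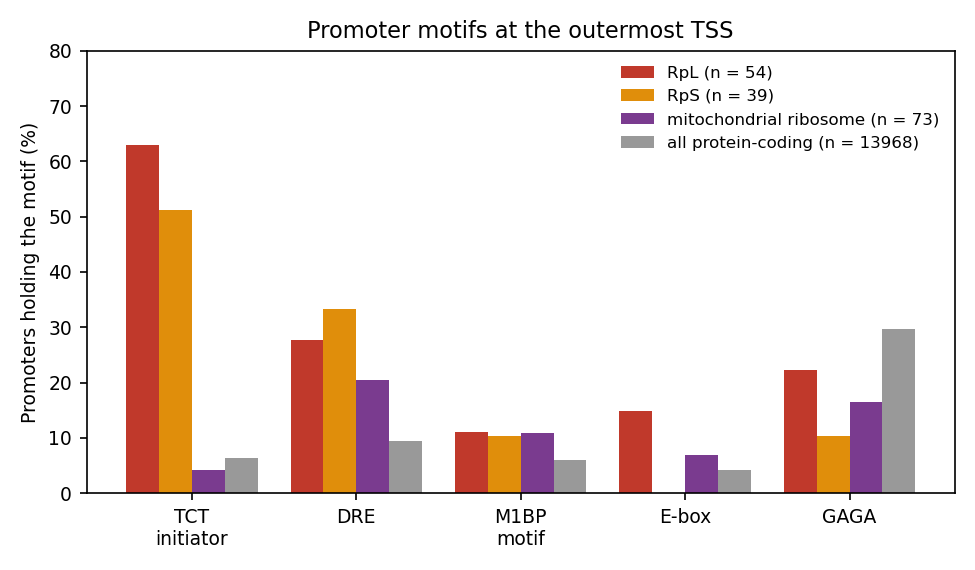
Share of promoters (%, vertical axis) that hold each motif, for RpL, RpS, mitochondrial ribosomal protein and all protein-coding genes, at the outermost TSS. The TCT initiator stands at 63.0% of RpL and 6.41% of all promoters, and GAGA at 22.2% of RpL and 29.7% of all promoters.

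By signal, RpL peaks belonged to the upper part of the IDR list but not to its top. The best was RpL7 at rank 431 of 4934, and the last was RpL10 at rank 4675. The median rank was 1234, against 2129.5 at the 1800 other bound genes. Of the 34, 25 (73.5%) lay in the stronger part of the list when it is cut at its middle, against 56.6%. The share was higher still at bound RpS genes (20 of 23, 87.0%) and bound mitochondrial ribosomal protein genes (8 of 9, 88.9%). The median signal was 259 at RpL genes, 234 at RpS genes and 185 at the other bound genes. Narrow peaks, below the usual width of 430 bp, were found at 11 of 34 RpL genes (32.4%) and 12 of 23 RpS genes (52.2%), against 27.7% of all bound genes outside the RpL set.

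The higher signal at members was mainly a feature of replicate 1, and RpS genes shared it. Among strongest candidates in replicate 1 the median relative signal was 1.79 at RpL genes and 1.53 at RpS genes, against 1.06 at all genes outside the RpL set. In replicate 2 it was 1.03 at RpL genes and 0.986 at RpS genes, against 1.03 outside the RpL set. In replicate 3 it was 1.12 at RpL genes and 1.14 at RpS genes, against 1.05 outside the RpL set. Each of these medians covers only the genes among the strongest candidates of that replicate. At genes bound in the IDR list, the RpL medians were 1.85, 1.01 and 0.982, against 1.05, 1.05 and 1.05 outside the RpL set. In replicate 3, 28 of the 34 bound RpL genes had such a value. Candidates narrower than the usual 400 bp of replicate 1 made up 20 of its 44 RpL genes (45.5%), 13 of its 27 RpS genes (48.1%) and 6 of its 12 mitochondrial ribosomal protein genes, against 18.1% of all genes outside the RpL set. No RpL gene among the strongest had a narrowed candidate in replicate 2 or 3, where such candidates were scarce in general. They were found at 10.4% and 11.0% of genes outside the RpL set, and at 1 of 24 and 1 of 16 RpS genes.

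**Figure D4:**
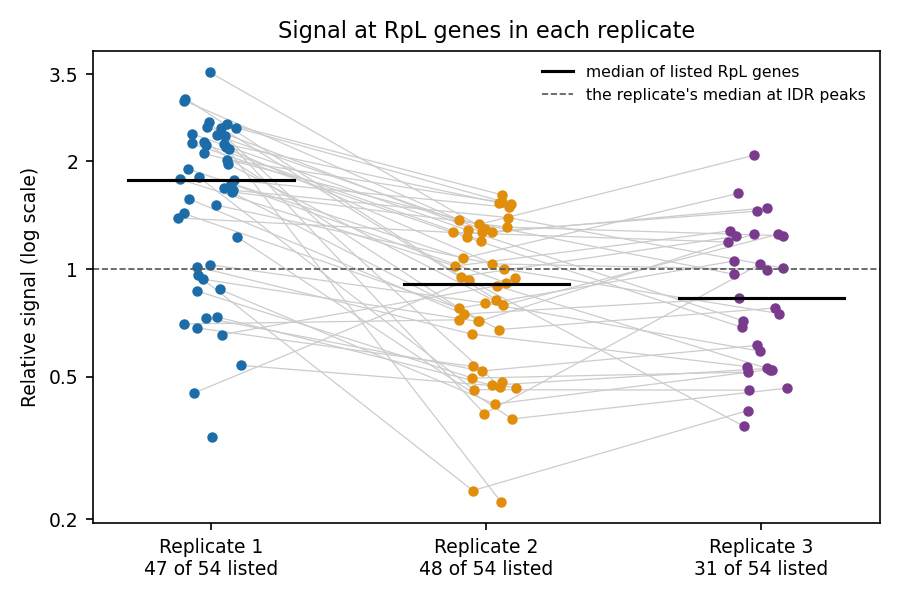
Relative signal of each listed RpL gene (vertical axis, log scale; the dashed line at 1 is the median of the replicate at IDR peaks) in replicates 1, 2 and 3, with grey lines joining a gene and black bars at the medians. Replicate 1 lies highest, and only 31 of 54 genes are listed in replicate 3, against 47 and 48 in replicates 1 and 2.

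The order of the members was shared only in part between replicates. Across RpL genes listed in both, Spearman's rho of signal was 0.470 for replicates 1 and 2 (46 genes), 0.644 for replicates 1 and 3 (31 genes) and 0.596 for replicates 2 and 3 (31 genes). Over all IDR peaks it was 0.667, 0.603 and 0.708 for the same pairs. These values describe genes of the same libraries, measured against 1 control alignment, and genes are not replicates.

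The stalk proteins and the protein at their base, which together recruit translation factors, were bound at 3 of 4 genes. The shares over all RpL genes and all protein-coding genes were 63.0% and 13.1%, and such small groups allow no reading of a difference from the whole set. RpLP0, the platform of the stalk, had a peak at chr3L:22076019-22076194 with its summit 1 bp upstream of the TSS. Its relative signals were 2.24, 1.23 and 0.687. RpLP1, one of the acidic proteins of the stalk tip, had a peak at chr2L:419752-420181 and relative signals of 1.43, 0.778 and 1.05. Both were thus among the strongest candidates of every replicate, with RpLP0 weakest in replicate 3 and RpLP1 in replicate 2. RpL12, at the base, was high only in replicate 1, with relative signals of 1.81, 0.460 and 0.459. Its replicate 2 candidate lay at -441 bp, away from those at -32 and 22 bp in replicates 1 and 3. RpLP2, the partner of RpLP1, was not bound in the IDR list. Its relative signals were 1.01, 0.658 and 0.534, and its pooled candidate at rank 4941 fell just below the last IDR peak at rank 4934.

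The genes for the proteins that travel with 5S RNA differed. RpL5 was bound, with a summit 14 bp upstream of the TSS. Its relative signals were 0.729, 0.519 and 0.612. RpL11 was not bound. Its relative signals were 2.24 and 1.53, with no candidate in replicate 3, higher than those of RpL5 in both replicates that listed it. Its nearest IDR summit lay 9158 bp away.

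Of the proteins around the exit of the peptide tunnel, 6 of 8 were bound, against 63.0% of all RpL genes and 13.1% of all protein-coding genes. RpL31 had a peak at chr2R:9587135-9587337 and a summit 2 bp downstream of the TSS. Its relative signals were 2.55 and 1.61, with no candidate in replicate 3. RpL23A, a docking point for the signal recognition particle, had relative signals of 2.16, 0.999 and 0.751. RpL17 had relative signals of 1.68, 0.677 and 0.778, and it had 2 IDR summits near its TSSs. These genes were strongest in replicate 1, and RpL31 dropped out of replicate 3. RpL19, which also reaches across to the small subunit, had relative signals of 2.58, 0.395 and 1.03, so that replicate 2 alone set it below the strongest candidates. RpL35 had relative signals of 1.03, 0.804 and 0.590, and RpL39, the smallest of the group, had relative signals of 1.23, 0.381 and 0.465. RpL26 and RpL38 were not bound. RpL38 was listed in each replicate, with relative signals of 0.735, 0.474 and 0.527. RpL26 was listed in replicate 2 only, at a relative signal of 0.944, and its nearest IDR summit at 626 bp made it the unbound gene closest to the limit of 500 bp.

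Of the proteins of the catalytic core and the tRNA sites, 4 of 6 were bound, against the same 63.0% and 13.1%. RpL3, next to the peptidyl transferase centre, had a peak at chr3R:11221732-11222161 and relative signals of 1.66, 1.39 and 1.01. RpL4, which extends a loop into the tunnel, had relative signals of 1.97, 0.792 and 1.25. RpL8, which helps to join the subunits, had relative signals of 1.78, 1.02 and 1.28. All 3 were among the strongest candidates of every replicate. RpL10, which is added late and completes the tRNA sites, had the lowest IDR signal of any bound member, 110. Its relative signals were 0.877, 0.420 and 0.524. RpL27A and RpL36A were not bound in the IDR list. RpL27A had relative signals of 1.73 and 0.915, with no candidate in replicate 3, and RpL36A had relative signals of 0.702 and 0.721, with no candidate in replicate 3.

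The remaining members of highest IDR signal came from several places in the subunit. RpL7 was the strongest, with an IDR signal of 437 at chr2L:10200933-10201189, shared with the start of Ripalpha within 500 bp. Its ranks were 198 and 1496, with no candidate in replicate 3. The gene that led the set in replicate 1 was thus missing from replicate 3. RpL14 had an IDR signal of 368 at chr3L:8600877-8601101 and ranks of 302, 1324 and 2539. RpL24, which bridges to the small subunit, had an IDR signal of 355 at chr2L:13394997-13395246 and ranks of 293, 2632 and 1584. Both were listed in every replicate, and both ranked best in replicate 1.

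RpL13 had an IDR signal of 345 at chr2L:9967218-9967404, and the same summit lay within 500 bp of the start of Dref, the gene for DREF. Its ranks were 455, 1549 and 1154. RpL30, known in yeast to bind its own transcript, had an IDR signal of 329 at chr2L:19009140-19009311 and ranks of 669, 1410 and 551. In replicate 3 no other RpL gene ranked as high as RpL30. RpL41, whose product is a very short peptide at the joint of the subunits, had an IDR signal of 322 at chr2R:24903845-24904026 and ranks of 519, 1554 and 1092. RpL7A had an IDR signal of 287 at chrX:6533157-6533316 and ranks of 796, 2152 and 917. RpL13, RpL30, RpL41 and RpL7A were thus all listed, and all among the strongest candidates, in each of the 3 replicates.

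Several further genes were among the strongest candidates of all replicates. RpL27 had relative signals of 1.64, 1.31 and 1.24, and RpL23 had relative signals of 1.39, 1.26 and 1.19. These were the steadiest of that group, with means of 1.40 ± 0.215 and 1.28 ± 0.101 (SD, n = 3). RpL37A had relative signals of 1.51, 1.03 and 0.997. RpL22, an RNA-binding protein, had relative signals of 2.26, 0.715 and 1.25. RpL9 had relative signals of 1.57, 0.748 and 0.830, with candidate summits within 39 bp of the TSS in all 3, yet no pooled candidate within 500 bp.

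RpL10, RpL15, RpL40 and RpL37-1 were among the bound members of lowest IDR signal, between 110 and 113. RpL15 had relative signals of 0.961, 0.241 and 0.403. RpL40, which is made as a fusion to ubiquitin, had relative signals of 0.450, 0.934 and 0.364, and only replicate 2 placed it among its strongest.

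**Figure D5:**
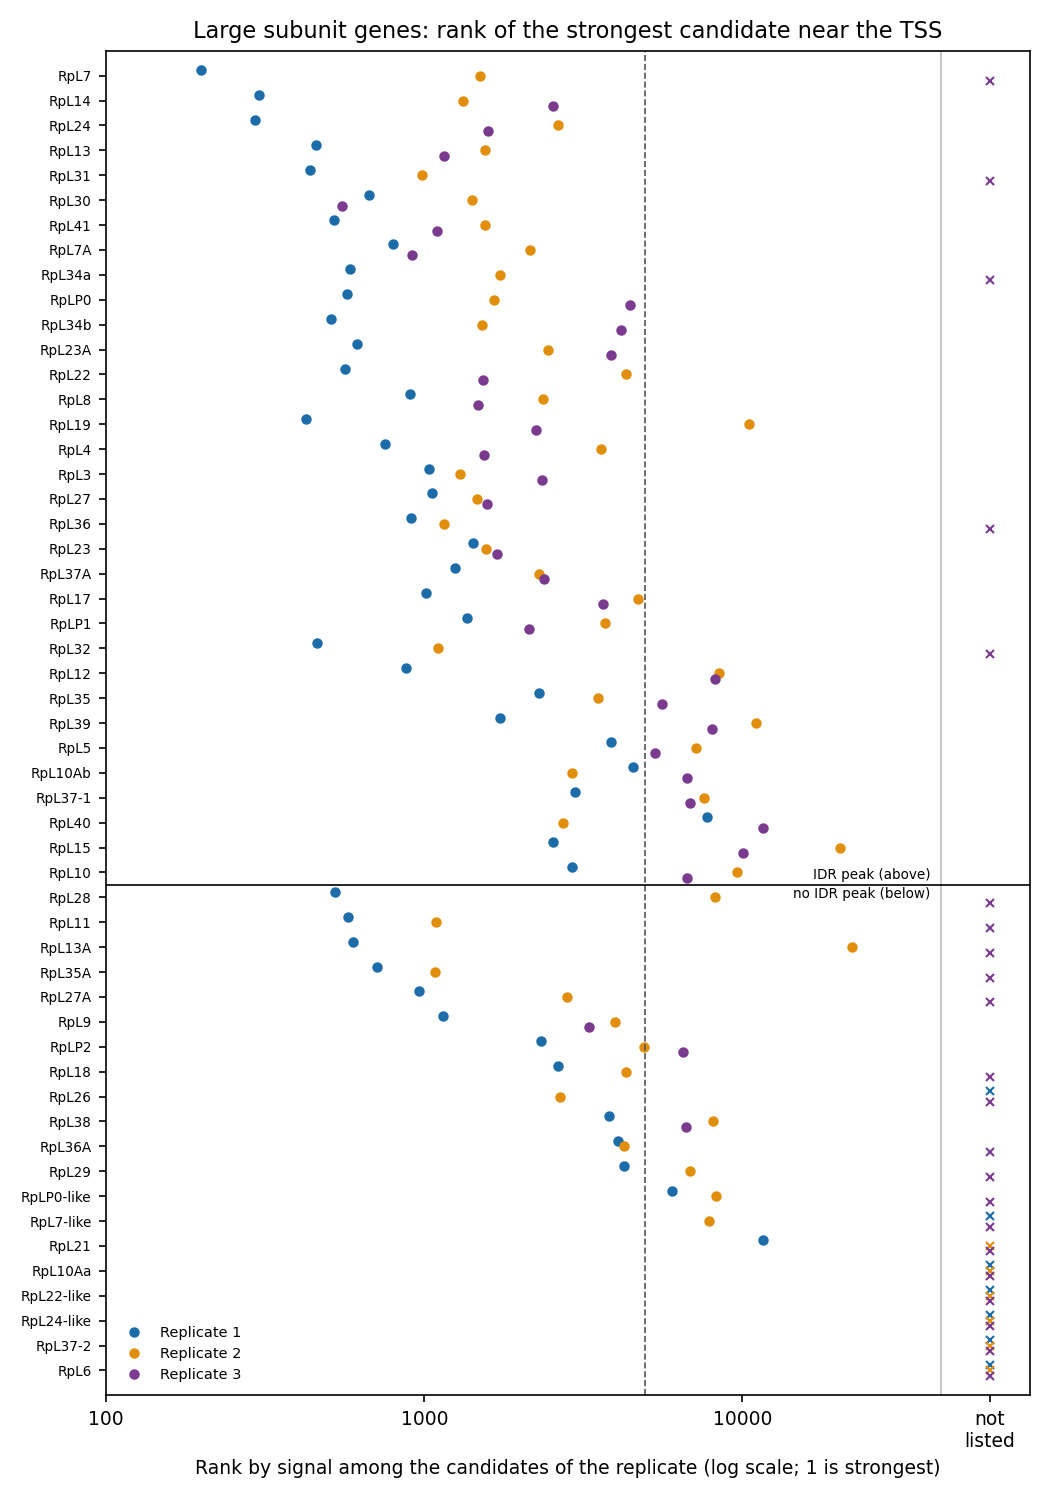
Rank of the strongest candidate within 500 bp of a TSS for the RpL genes, with 1 bound member not shown (horizontal axis, log scale, 1 is strongest; crosses at the right mark genes with no candidate) in replicates 1, 2 and 3. Genes run from the highest IDR signal downwards with the 20 unbound genes below the line, and the dashed line marks rank 4934; several unbound genes rank as high in replicate 1 as bound ones.

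Members with paralogues separated within the pairs. Of these 14 genes 8 were bound (57.1%), against 63.0% of RpL genes and 13.1% of all protein-coding genes. In 6 of 7 pairs of related symbols a single gene was bound. The bound gene is named first: RpL7 and RpL7-like, RpL10Ab and RpL10Aa, RpL22 and RpL22-like, RpL24 and RpL24-like, RpL37-1 and RpL37-2, and RpLP0 and RpLP0-like. The products of RpL24-like, RpL7-like and RpLP0-like correspond to yeast assembly factors and not to proteins of the finished ribosome. RpL24-like, RpL22-like, RpL10Aa and RpL37-2 had no candidate in any replicate. RpL7-like was listed in replicate 2 only, at relative signals of 0.483. RpLP0-like had relative signals of 0.538 and 0.467, with no candidate in replicate 3. RpL10Ab, of the mobile L1 stalk, had relative signals of 0.656, 0.897 and 0.523, and RpL37-1 had relative signals of 0.868, 0.496 and 0.515.

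RpL34a and RpL34b were the pair with both genes bound. RpL34a had a peak at chr3R:26059085-26059514 and relative signals of 2.22 and 1.20, with no candidate in replicate 3. RpL34b had a peak at chr3R:9401073-9401502 and relative signals of 2.38, 1.28 and 0.717. Their IDR signals were close, 283 and 275, while RpL34a was missing from replicate 3. How reads that map to more than 1 place were handled is not given in the sources used here, which limits what can be said of closely related copies.

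Genes strong in replicates 1 and 2 but absent from replicate 3 were frequent among the members. Of 33 RpL genes among the strongest candidates of replicates 1 and 2, 11 had no candidate of any rank in replicate 3 (33.3%). The same held for 3 of 22 RpS genes (13.6%) and 155 of 1374 other genes outside the RpL set (11.3%). The 11 included RpL7, RpL31, RpL32, RpL34a and RpL36, which were bound. They also included RpL11, RpL18, RpL27A, RpL35A and RpL36A, which were not. RpL32, a common reference gene in fly expression studies, had relative signals of 2.48 and 1.52, with no candidate in replicate 3, and RpL36 had relative signals of 1.77 and 1.49, with no candidate in replicate 3.

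The IDR list left out members that single replicates ranked high. Among the strongest candidates of at least 2 replicates, but with no pooled candidate near the TSS, were 6 RpL genes (11.1%), against 0.945% of all protein-coding genes. They were RpL9, RpL11, RpL18, RpL27A, RpL35A and RpL36A. RpL35A had ranks of 712 and 1078, with no candidate in replicate 3. RpL11 had ranks of 574 and 1086, with no candidate in replicate 3. RpL18 had ranks of 2632 and 4306, with no candidate in replicate 3. All 3 were missing from replicate 3, and RpL35A and RpL11 ranked above RpL27 and RpL3 in replicates 1 and 2.

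RpL28 and RpL13A were strong in a single replicate. RpL28 had ranks of 524 and 8193, with no candidate in replicate 3. Both candidates also lay within 500 bp of the start of eIF1, a translation factor gene that had a further candidate in replicate 3, at rank 5147. RpL13A had ranks of 597 and 22138, with no candidate in replicate 3, and its candidates also lay within 500 bp of the starts of Dph4 and Spec2. Their nearest IDR summits lay 3325 and 2225 bp away, after RpL26, RpLP0-like and RpLP2 the closest of the unbound genes. RpL29 had ranks of 4237 and 6828, with no candidate in replicate 3, and RpL21 was listed in replicate 1 only, at rank 11624. RpL6 had no candidate in any replicate. Its product is a protein of the finished subunit, and its start has a TCT initiator.

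Other genes of protein synthesis were bound at lower shares than the ribosomal protein genes of the cytosol. Of 30 translation factor genes 11 were bound (36.7%), against 13.1% of all protein-coding genes. Their mean share over the replicates was 37.8% ± 5.09, against 14.0% ± 0.820 of all genes (SD, n = 3). The strongest was eIF6, which keeps the subunits apart until the large one is mature, with relative signals of 5.43, 2.12 and 2.93 and its summit 104 bp upstream of the TSS. Rack1, a protein of the small subunit surface, had relative signals of 1.94, 1.28 and 1.36 with the summit 3 bp downstream. Thor, the fly 4E-BP, had relative signals of 1.15, 1.55 and 2.21, and eIF4H1 had relative signals of 2.01, 2.25 and 0.785. All 4 were among the strongest candidates of every replicate.

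Of 23 genes named for ribosome assembly and the nucleolus, 22 were matched by symbol, all but TIF-IA. Of these 22 genes 1 was bound (4.55%), against 13.1% of all genes. Among the strongest candidates their shares were 4.55%, 13.6% and 4.55% in replicates 1, 2 and 3, so that replicate 2 was near its background of 14.6%, and a list of this size allows no reading of the difference. That gene was Surf6, whose summit lay closer to the start of RhoGAP92B. Of 10 genes that regulate ribosomal protein and growth genes 6 were bound, against 13.1% of all genes: Dref, Irbp18, Trf2, Xrp1, Mnt and S6k. The Dref summit is the one counted for RpL13, and that of Irbp18 lay closer to APP-BP1. Trf2, which encodes a TBP-related factor known to act at TCT promoters in flies, had relative signals of 1.28, 1.76 and 1.34. Xrp1, a factor induced in Minute cells, had relative signals of 0.936, 1.29 and 1.37. The RpL gene RpL13 and the gene of the DRE factor thus share a bound region in these lists.

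Among the RpS genes, the nearest comparison to the members, RpS27 was strongest with relative signals of 4.53, 1.49 and 1.65 and its summit on the TSS. RpS4 had relative signals of 3.41, 2.41 and 2.03, and RpS10b had relative signals of 3.01, 1.58 and 1.64. These 3 stood above every RpL gene in IDR signal except RpL7, which passed RpS10b alone. Bound mitochondrial ribosomal protein genes had stronger peaks, up to a rank of 25, but 7 of the 9 summits lay closer to another gene.

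RpL genes, like RpS genes, were shorter at the median than bound genes in general. The median length was 1347 bp at bound RpL genes and 1164 bp at unbound ones, against 5396.5 bp at all bound protein-coding genes and 2164.5 bp at all such genes. Over all 39 RpS genes it was 1356 bp, close to the 1315 bp of all RpL genes. A single annotated TSS was given for 17 of 34 bound and 12 of 20 unbound RpL genes. Introns of ribosomal protein genes often host small nucleolar RNAs (snoRNAs), and 16 RpL genes contained at least 1. Of these hosts 11 were bound, against 23 of the 38 RpL genes that host none. Over all protein-coding genes 39 of 84 hosts were bound (46.4%), against 12.9% of the genes that host none, and those 39 included the 11 RpL hosts and 10 RpS genes. Outside both sets 18 of 55 hosts were bound (32.7%), against 12.7% of the genes that host none.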

How the data were processed

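Per the labels, anti-GFP precipitates of prepupae of the strain CG9139-GFP, described as expressing CG9139-eGFP, were sequenced in 3 biological replicates. The authors deposited region lists on dm6, each with a signal (the authors' enrichment over 1 control alignment) and a −log10 q value from their caller. The deposited −log10 q values were at their maximum at 74.8% of IDR peaks and were not used to rank. Not given in the sources used here are the aligner, the caller, the IDR threshold, the treatment of reads mapping to several places and the source of the control alignment. Depth per sample is unknown, so no counting error is given, and lists on dm3 were not used here.

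Lists were read with Python 3.11.15, numpy 2.4.6 and pandas 2.3.3, drawn with matplotlib 3.10.9, and correlated with scipy 1.17.1. Genes came from Ensembl release 115 on 7 arms and letters from the RefSeq Release 6 genome. All 4934 summits lay inside its sequences, and 13965 of 13967 genes had the same ends in both annotations. If several summits lay within 500 bp of a TSS, the one of highest signal was used. Shares are counts of genes without a set test, and with 1 group no comparison of conditions was possible. Named with values in each replicate are the 10 strongest and 5 weakest bound members, members among the strongest candidates of all replicates, the 5 unbound members nearest to a summit, paralogue pairs, and up to 4 bound genes of other lists. The result of 1 member is not reported here. Other members were named after their values were seen. The members and lists were chosen with earlier results of these data known. The calling of bound genes and the measure of summit position were tested on simulated summits. The other steps were not tested in this way. Alternatives were distances of 200 and 1000 bp, other TSS and gene assignments, stricter or longer lists, other motif windows, and leaving out each replicate.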

Additional observations from a re-analysis of the deposited data

How the results depend on the processing

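Of 67 alternatives, 51 left the result within 1.5 times its value or its limit and 16 moved it. By the rule used, counts, positions and the median rank could not be scored as reversed. That score existed only for relative signal compared by rank, where none reversed. The 34 bound RpL genes became 32 within 200 bp (59.3%, against 9.38% of all genes), 35 within 1000 bp (64.8%, against 16.0%) and 25 among peaks above the median signal (46.3%, against 7.47%). Restricting the IDR peaks to regions ranked among the strongest by both other replicates left 18 RpL genes without replicate 1 (33.3%, against 8.91% of all genes). Without replicate 2 it left 19 (35.2%, against 8.49%), and without replicate 3 it left 26 (48.1%, against 9.11%). Of the 23 bound RpS genes it left 15, 15 and 21 (38.5%, 38.5% and 53.8% of all RpS genes), against the same shares of all genes. The 9 bound mitochondrial ribosomal protein genes fell to 4 within 200 bp (5.48%, against 9.38% of all genes), 2 when a summit counted for its nearest gene alone (2.74%, against 11.2%), and 3 when the peak had to cover the TSS (4.11%, against 8.72%). The 35 RpL genes of replicate 2 became 20 with a list of 2467 candidates (37.0%, against 7.77% of all genes), and the 20 of replicate 3 became 31 with all 30000 (57.4%, against 34.4%). The 19 RpL genes of all replicates became 31 with all 30000 candidates (57.4%, against 22.2% of all genes), 9 with 2467 (16.7%, against 4.36%), and 19 to 33 when a replicate was left out, with 33 without replicate 3 (61.1%, against 10.1%). The median summit position of -5.5 bp became 13.5 bp from the outermost TSS, 8 bp with summits of replicate 2 and 16.5 bp with those of replicate 3. All of these lie downstream of the TSS, on the other side from -5.5 bp. The 12 RpL promoters with GAGAG became 7 in a window starting 100 bp before the TSS (13.0%, against 18.0% of all promoters). The cause of these shifts was not tested. No paired analysis was possible because there is 1 group. Without depths or a library lacking the tagged protein, the precision of a single rank, and the level of these promoters in such a library, are unknown.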

Other observations

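RpL7A and RpL17, both on X and both among the strongest candidates of all 3 replicates, shared a run of 46 bases in their promoters, from 250 bp before to 50 bp after the TSS nearest to the summit. Over the 1431 pairs of RpL genes the median longest shared run on the gene's strand was 9 bases, and the next longest was 23 bases, between RpL23 and RpL35A. For unbound genes, such as RpL35A, the outermost TSS was used. This pattern was looked for after the printed stretches had been seen.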
